A study of Mus musculus with 3 samples.

Results

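The 31 genes described here encode constitutive subunits of the 26S proteasome, among 21951 protein-coding genes of GENCODE M21. They were taken by symbol from a list of core and regulatory subunits that was drawn up with earlier results of these data known, by a rule that uses no measured value, and all 31 matched the annotation. Of these, 14 encode the core particle (7 in the alpha ring and 7 in the beta ring) and 17 encode the regulatory particle (6 ATPases and 3 other subunits of the base, and 8 subunits of the lid). The genes lie on 14 chromosomes.

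The proteasome degrades proteins that carry ubiquitin chains. The lid and base of the regulatory particle recognise the chain, remove it and unfold the protein, and the ring of ATPases threads the chain of amino acids through the alpha ring to the catalytic sites of the beta ring. The subunits are needed in fixed ratios, and in mammals their genes are known to be raised together by Nfe2l1 (Nrf1), which binds antioxidant response elements, when proteasome activity falls. NF-Y, a trimer of NF-YA, NF-YB and NF-YC, binds the CCAAT box, and trimethylation of histone H3 at lysine 4 (H3K4me3) marks promoters in use.

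The data came from cerebral cortices of mouse embryos at E13.5, a stage at which the cortex holds many dividing progenitors. Chromatin was fixed with formaldehyde, sonicated and precipitated with an antibody against NF-YC (NF-Y-ChIP) or against H3K4me3 (H3K4me3-ChIP), with unprecipitated chromatin as input, and each of the 3 kinds was sequenced as 1 library. No treatment or genotype was compared, the labels give no strain, and whole cortex mixes progenitors, neurons and other cells. The comparisons therefore ask whether proteasome promoters carried either signal, and how they stood among other promoters of the same tissue.

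The deposited lists held 733 NF-Y-ChIP peaks and 18816 H3K4me3-ChIP peaks, each with a fold enrichment, the ratio of signal at the summit (the highest point of the peak) to the background as MACS2 estimated it. Whether that background came from input or from the ChIP library itself is not stated. Their medians were 6.75-fold and 27.5-fold, and the read depth behind them is unknown. With 1 library per antibody there was no replicate error and no test was made. Intervals are 95% Wilson intervals for shares and order-statistic intervals for medians. They treat genes as independent draws, reflect only the number of genes and the values among them, and are not tests. Variation between animals is not in them. All 10 markers of dorsal telencephalon carried an H3K4me3-ChIP peak, as did 2 of 9 markers of other cell types.

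A gene is called marked here when any part of an H3K4me3-ChIP peak lay within 1 kb of the 5′ end of any of its transcripts (TSS), and NF-Y-positive when an NF-Y-ChIP summit did. Each of these proteasome genes was marked, 31 of 31 (100%, 95% interval 89.0 to 100%), against 62.7% of all protein-coding genes. By contrast, Psma3 was the only proteasome gene with an NF-Y-ChIP summit, 1 of 31 (3.23%, 95% interval 0.572 to 16.2%), against 5.03% of all marked genes and 3.17% of all protein-coding genes. The share of NF-Y-positive members was thus near the background, and the interval covers it. Sequences of the Psma3 site and of single CCAAT boxes in other members are shown next, as examples with and without a peak.

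Psma3 (ENSMUSG00000060073.9, chr12:70974621-70996347, plus strand of mm10/GRCm38) encodes a subunit of the alpha ring, which gates entry to the catalytic chamber. Its NF-Y-ChIP peak spanned chr12:70974533-70974775 (243 bp), with the summit at position 70974650. In the reference transcript, counting the TSS as position 0, the summit lay at +29, in the 5′ UTR of exon 1, and another annotated TSS of the gene lay 21 bp downstream of it. The fold enrichment was 9.87, rank 127 of 733, with a −log10 p of 23.1 and a −log10 q of 17.7. The peak was thus stronger than the median NF-Y-ChIP peak of 6.75-fold, and at percentile 82.6 of the list.

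Under the Psma3 summit lay a pair of CCAAT boxes that face in opposite directions, at +15 and +32, with their starts 17 bp apart. The summit was 12 bp from the centre of the first and 5 bp from the centre of the other. Within 50 bp of the summit, CCAAT or its reverse complement ATTGG stood in 646 of all 733 NF-Y-ChIP peaks (88.1%), and at 2 or more places in 343 (46.8%). The pair is printed along the gene with the boxes in capitals, at chr12:70974632-70974661 (plus strand, +11 to +40).
Psma3 pair: ggctATTGGtggagagcgcagCCAATgggc

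The Psma3 NF-Y-ChIP peak shared 176 bp with the H3K4me3-ChIP peak of the gene (chr12:70974600-70975788, 56.9-fold), and the summits of the peaks were 261 bp apart. The NF-Y-ChIP summit sat near the upstream edge of the marked region, which began 21 bp upstream of the reference TSS.

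**Figure D1:**
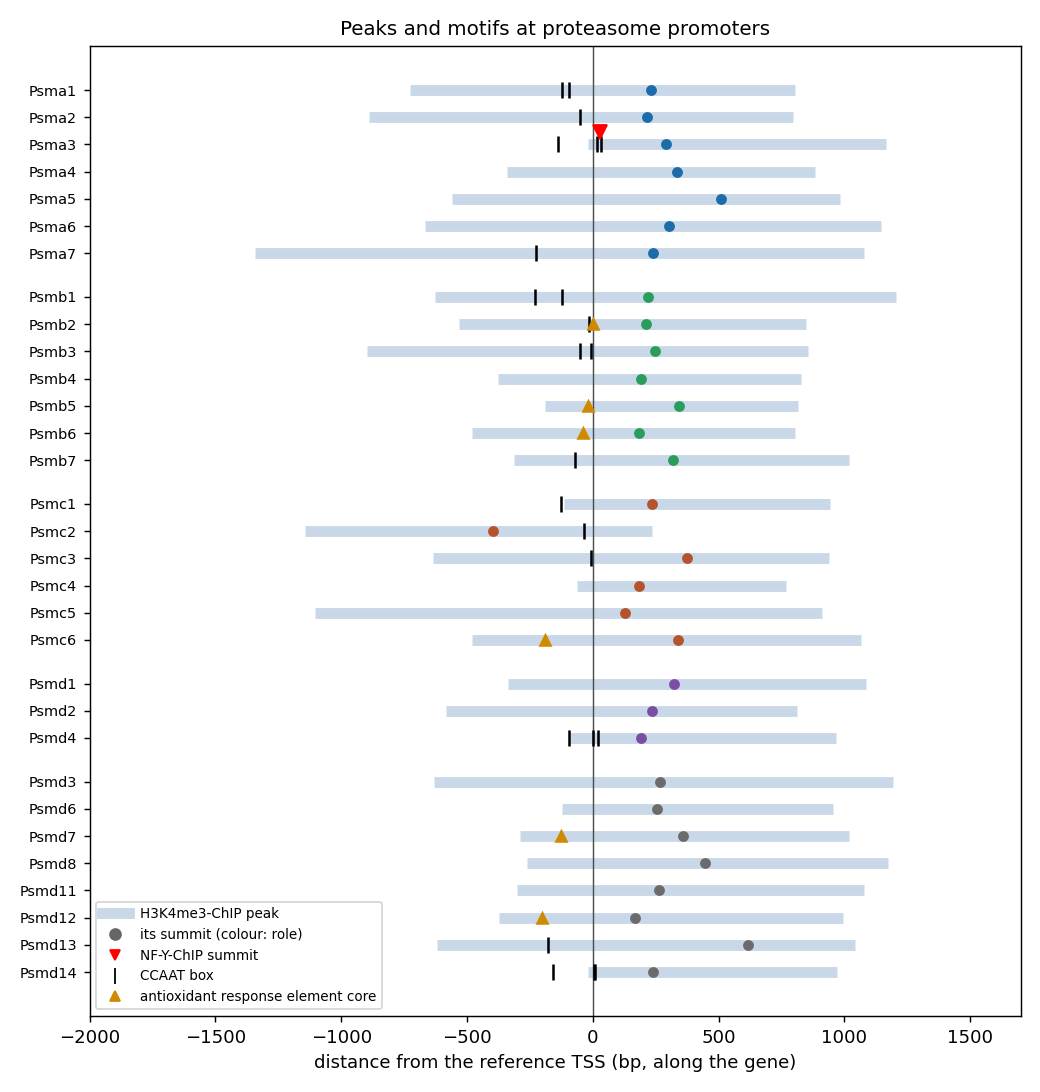
Each row is a proteasome gene, grouped by role, and the horizontal axis is the distance from the reference TSS in bp along the gene (negative is upstream). Pale bars are H3K4me3-ChIP peaks, dots their summits, black ticks CCAAT boxes and orange triangles antioxidant response element cores within 250 bp upstream and 50 bp downstream, and the red triangle is the NF-Y-ChIP summit of Psma3 at +29, the only one among the 31 genes. In 30 of the rows the summit dot lies to the right of the TSS.

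Distances to the nearest NF-Y-ChIP summit were ordinary for marked genes. The summit was within 100 kb of the reference TSS in 7 members, Psma3 included (22.6%, 95% interval 11.4 to 39.8%), against 17.8% of other marked genes, and within 10 kb in Psma3 alone (3.23%), against 5.95%. After Psma3 the closest were Psmd4 at 27.1 kb, Psmd11 at 45.4 kb and Psmd3 at 46.9 kb. When a target was instead a gene with a peak inside it or within 5 kb upstream, the rule of the study's methods, the count was again 1 of 31, Psma3, against 3.69% of all protein-coding genes.

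The count was alike among members with high H3K4me3-ChIP signal. Of the 27 members above the median fold enrichment of other marked genes, 1 (3.70%, 95% interval 0.657 to 18.3%) was NF-Y-positive, against 462 of 6867 other marked genes above it (6.73%).

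Many proteasome promoters nevertheless hold the letters that NF-Y binds. CCAAT or ATTGG was searched in the 300 bp window from 250 bp upstream to 50 bp downstream of the reference TSS, where 38.6% of all protein-coding promoters have it. It was present in 14 of 31 members (45.2%, 95% interval 29.2 to 62.2%), against 37.6% of all marked genes. The 14 members were Psma1, Psma2, Psma3, Psma7, Psmb1, Psmb2, Psmb3, Psmb7, Psmc1, Psmc2, Psmc3, Psmd4, Psmd13 and Psmd14. By role, the box was found in 4 of 7 alpha ring genes, 4 of 7 beta ring genes, 3 of 6 ATPase genes, 1 of 3 other base genes and 2 of 8 lid genes. These windows held 23 boxes, 17 of them upstream of the TSS and 13 in the direction of the gene, so both orientations were common. The window itself lies mostly upstream (250 of its 300 bp), and box places and directions in other promoters were not counted. No preference is therefore read from these counts.

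Among the 14 members with a box, 1 was NF-Y-positive (7.14%, 95% interval 1.27 to 31.5%), against 11.2% of all marked genes with a box. With 2 or more boxes, the count was 1 of 6 members (16.7%, 95% interval 3.01 to 56.4%), against 22.3% of all such marked genes. With a single box it was 0 of 8, where the interval reaches 32.4%, against 163 of 3305 other marked genes (4.93%). Without a box it was 0 of 17, with an upper bound of 18.4%, against 114 of 8572 (1.33%). In each class the share of the other genes lay inside the interval of the members, and these classes are too small to show a difference of this size.

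**Figure D2:**
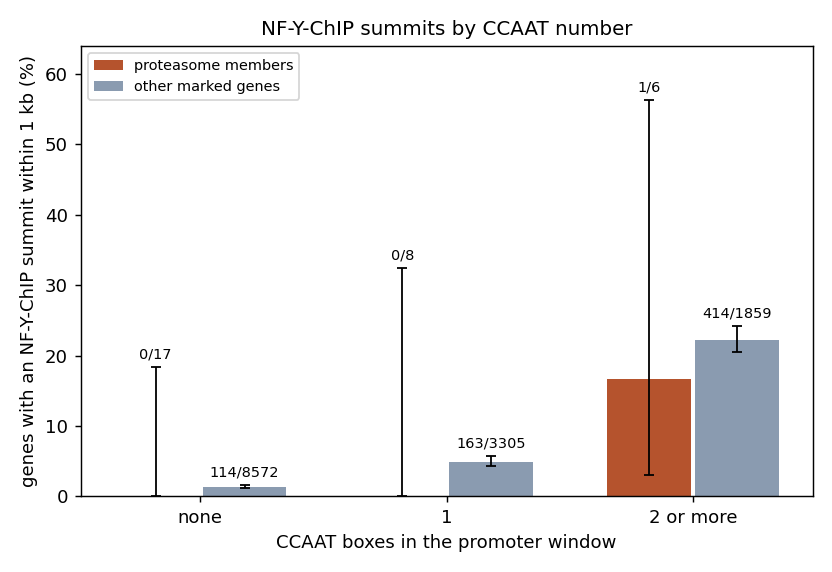
Bars give the share of genes (%, axis from 0) that were NF-Y-positive, by the number of CCAAT boxes in the promoter window, for proteasome genes and for other genes with an H3K4me3-ChIP peak. Error bars are 95% Wilson intervals and the counts stand above them. The share rises with the number of boxes in the other genes, from 1.33% to 22.3%, and the intervals of the members are wide.

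The members with 2 or more boxes were Psma1, Psma3, Psmb1, Psmb3, Psmd4 and Psmd14. The starts of neighbouring boxes lay 28 bp apart in Psma1, 105 bp in Psmb1, 42 bp in Psmb3 and 3 bp in the closest pair of Psmd14, where the boxes overlap on opposite strands. Starts 10 to 30 bp apart, a range chosen after the Psma3 pair was seen, occurred in Psma1, Psma3 and Psmd4, of which 1 was NF-Y-positive. Of 481 other marked genes with such a pair, 137 were NF-Y-positive (28.5%, 95% interval 24.6 to 32.7%).

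The bases around the box also differ between promoters with and without NF-Y-ChIP signal. A flank score was computed for each box from the 5 bases on each side, as the summed log2 ratio of base frequencies at boxes nearest to NF-Y-ChIP summits (645 boxes, the Psma3 box left out) over those in marked promoters without a summit (6582 boxes). Higher scores mean bases more common at NF-Y-ChIP summits. A T directly after the box, for example, was found at 3.39% of the former and 14.9% of the latter. The score was devised after the peaks had been seen and learned from the same list, so its separation of the other genes is not an independent result.

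The highest score in each promoter had a median of 1.89 in 577 other NF-Y-positive genes with a box and −0.63 in 4587 other marked genes with a box and no summit. In the 13 proteasome genes with a box and no summit the median was −1.36 (95% interval −2.27 to 1.58), with a range from −3.37 in Psmb1 to 2.34 in Psmd4. Psma3 scored 2.20. Most of the members without a summit thus scored low, as did most other genes without a summit.

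A score at or above 1.89 was reached by 2 of these 13 members, Psmd4, which encodes a ubiquitin receptor of the base, and Psma2 (15.4%, 95% interval 4.33 to 42.2%), against 771 of 4587 other genes without a summit (16.8%). Psma2, another alpha ring gene, scored 2.21 at a box 52 bp upstream of the TSS. Psmb3 of the beta ring followed with 1.58 and Psmc3, an ATPase, with 1.44. Most genes with a high score had no peak. Of other marked genes at or above 1.89, 289 of 1060 (27.3%) were NF-Y-positive, against 577 of 5164 with a box at any score (11.2%). The value 1.89 is the median of the NF-Y-positive genes the score was learned around, so this difference is not an independent result.

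The highest-scoring box of Psma3 is printed here with those of 3 of the 4 members without a summit that scored above 1. That of Psmd4, the highest at 2.34, is not printed. Also printed is the best box of Psmb1, the member whose highest score was lowest (some other boxes of members scored lower). Each is read in the direction CCAAT with 10 bases to each side. The boxes lie at chr12:70974643-70974667 (plus) for Psma3, chr13:14613178-14613202 (plus) for Psma2, chr11:97703381-97703405 (plus) for Psmb3, chr2:91053993-91054017 (plus) for Psmc3 and chr17:15498512-15498536 (plus) for Psmb1.
Psma3 at +32: gagagcgcagCCAATgggcgagcct
Psma2 at −52: tgactctcctCCAATcagagcaaag
Psmb3 at −8: ggcccgccagCCAATggggaggatt
Psmc3 at −6: tgtacgccggCCAATagcagcccag
Psmb1 at −228: aaaaattaacCCAATtacagagcaa

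**Figure D3:**
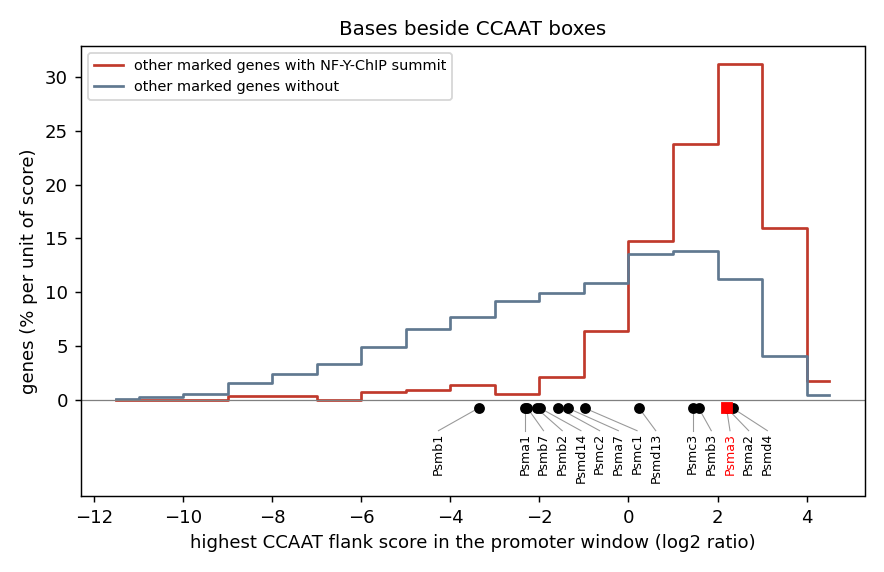
Lines show the distribution (% of genes per unit of score) of the highest CCAAT flank score (log2 ratio) in other marked promoters with and without an NF-Y-ChIP summit. Points below the axis are the 14 proteasome genes with a box, with Psma3 as the red square. Psma3, Psma2 and Psmd4 lie together between 2.20 and 2.34, where the promoters with a summit are most frequent, and 8 of the others lie below 0.

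Among the other motifs, the antioxidant response element core TGACNNNGC (reverse complement GCNNNGTCA) was found in 6 of 31 windows (19.4%, 95% interval 9.19 to 36.3%), against 13.97% of other marked genes and 12.8% of all protein-coding promoters. It stood in 3 of 7 beta ring genes, Psmb2, Psmb5 and Psmb6, of which Psmb5 and Psmb6 encode the chymotrypsin-like and caspase-like catalytic subunits. No alpha ring gene held it. Psmc6 held it as the only ATPase gene, and Psmd7 and Psmd12, named after the search, were the lid genes that held it. Psmb2 alone had both this core and a CCAAT box, and 12 members had neither.

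The matches closest to the TSS are those of the beta ring genes, printed along the gene with the core in capitals. They lie at chr4:126677621-126677645 (plus) for Psmb2, chr14:54618026-54618050 (minus) for Psmb5 and chr11:70525340-70525364 (plus) for Psmb6.
Psmb2 at −1: cgcgccagTGACTGGGCcgtcgcgc
Psmb5 at −20: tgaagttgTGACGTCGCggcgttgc
Psmb6 at −38: aaagagagTGACGGAGCgctttacg

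The GC box GGGCGG (reverse complement CCGCCC) stood in 20 of 31 members (64.5%, 95% interval 46.9 to 78.9%), against 64.8% of other marked genes and 45.3% of all protein-coding promoters. Proteasome windows had a lower GC content than other marked promoters, with a median of 55.3% (95% interval 53.7 to 60.3%) against 61.0%, and 22 of 31 lay below that median. The ratio of observed to expected CpG was 0.808 (95% interval 0.754 to 0.907) against 0.757. A match to any of these motifs is a description of letters in the window.

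The H3K4me3-ChIP signal at proteasome promoters was high within the marked genes. Taking the strongest peak of each gene, the median fold enrichment was 49.97 (n = 31 genes, 95% interval 47.2 to 56.9), against 39.9 (95% interval 39.4 to 40.3) in 13736 other marked genes. Above the median of the others lay 27 of 31 members (87.1%, 95% interval 71.1 to 94.9%), above their upper quartile of 52.7 lay 10 (32.3%) and below their lower quartile of 25.7 lay 1. The −log10 q had a median of 213 in the members and 157 in the others.

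The strongest peaks belonged to genes of different roles. Psmd11, a lid subunit that bridges the regulatory and core particles, had 81.8-fold (rank 67 of 18816), Psmb7, the trypsin-like catalytic subunit, 80.6-fold (rank 88), and Psmd6, also of the lid, 79.8-fold (rank 109). These 3 peaks stood within the leading 109 of the list. Psmd3 of the lid followed with 75.5-fold.

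The lowest was Psmb6, the caspase-like catalytic subunit, with 22.6-fold (rank 10660), well apart from the next members, the ATPase genes Psmc4 with 37.7-fold and Psmc6 with 39.2-fold. The catalytic subunits, which work side by side in the same ring, therefore spanned nearly the whole range of the members, with 46.5-fold at Psmb5 between Psmb6 and Psmb7. Of the subunits that act on ubiquitin, the receptor gene Psmd4 had 48.97-fold and the deubiquitinase gene Psmd14 had 52.5-fold, both near the middle.

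By role, the median was 51.5-fold in the alpha ring, where values ran from 39.4 in Psma6 to 68.1 in Psma7. In the beta ring it was 60.0-fold, and Psmb4 (64.95-fold), Psmb1 (64.7-fold), Psmb2 (60.0-fold) and Psmb7 lay above the upper quartile of the other marked genes. ATPase genes had a median of 49.0-fold and a narrow range from 37.7 to 50.4, with none above that quartile. The other base genes, Psmd1, Psmd2 and Psmd4, lay between 42.7 and 48.97, and the lid genes had a median of 55.6-fold from 40.9 in Psmd12 to 81.8. Ranges of all roles overlapped, and no order of roles is drawn from them.

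**Figure D4:**
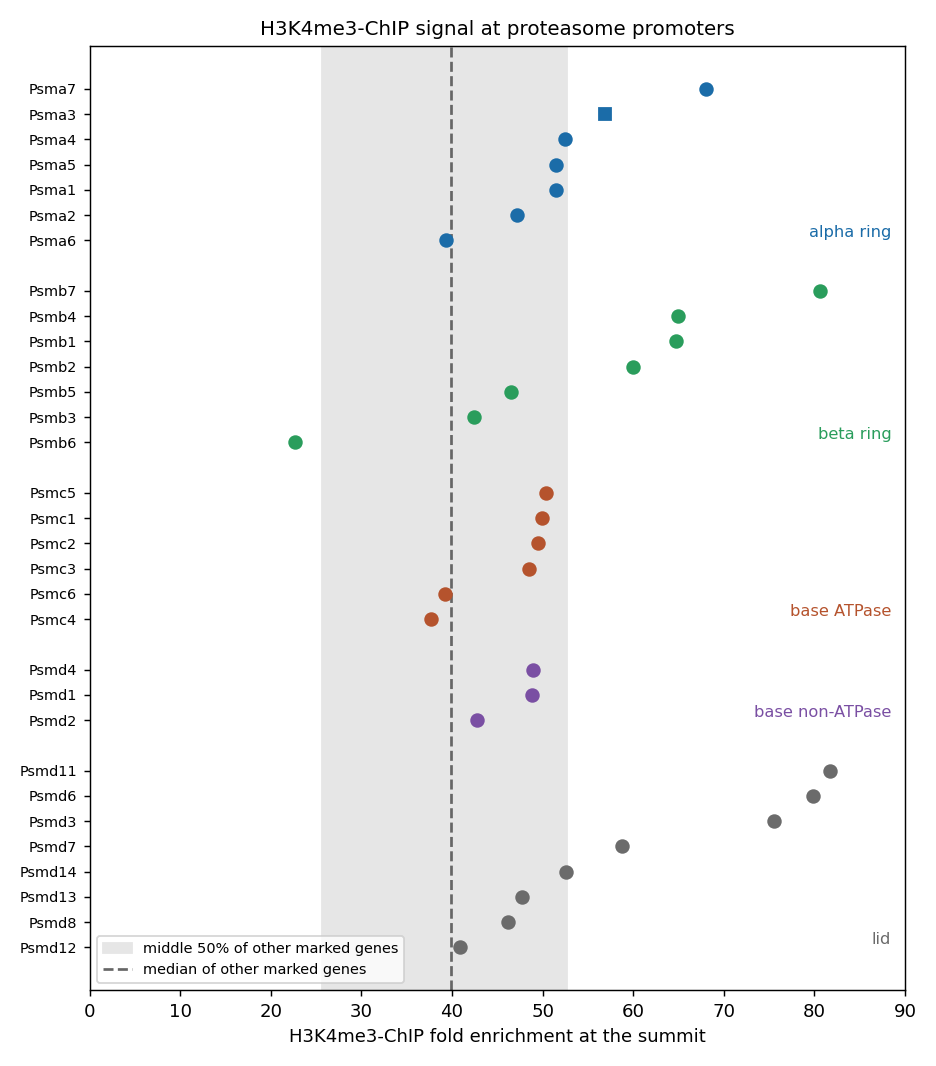
The horizontal axis is the H3K4me3-ChIP fold enrichment at the summit of the strongest peak, with 1 point for each proteasome gene, grouped and coloured by role, and the square marking Psma3. The dashed line is the median of 13736 other marked genes (39.9) and the grey band their middle 50% (25.7 to 52.7). All but 4 genes lie to the right of the line, and Psmb6 at 22.6 is the only one left of the band.

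Peak widths of the members had a median close to that of the other marked genes but were less spread. The median was 1382 bp (95% interval 1284 to 1548), against 1405 bp in the other marked genes. The middle 50% of the members ran from 1214.5 to 1619 bp, against 1028 to 1865 bp in the others. Within the latter range lay 26 of 31 members. The widest peaks were those of Psma7 (2420 bp), Psmc5 (2016 bp) and Psmb1 (1831 bp), and the narrowest those of Psmc4 (831 bp), Psmd14 (992 bp) and Psmb5 (1009 bp). Psmc5 had 50.4-fold over its 2016 bp, and Psmd6 reached 79.8-fold over 1077 bp.

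A divergent gene, on the other strand with its TSS within 1 kb upstream of the reference TSS, was annotated for 6 of 31 members (19.4%, 95% interval 9.19 to 36.3%), close to the 20.2% of other marked genes. The pairs were Psma2 with Mrpl32 (75 bp apart), Psma7 with Ss18l1 (76 bp), Psmc2 with Dnajc2 (32 bp), Psmc3 with the processed transcript Gm13778 (76 bp), Psmc5 with Ftsj3 (75 bp) and Psmd13 with Sirt3 (99 bp). Peaks of these 6 members had a median width of 1673.5 bp, against 1367 bp in the 25 without a divergent gene, and among other marked genes the medians were 1729 bp and 1323 bp. The widest peaks, at Psma7 and Psmc5, were thus at divergent promoters, where the peak cannot be assigned to either gene.

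Most members had a single H3K4me3-ChIP peak within 1 kb, 29 of 31, and 2 had 2 peaks (6.45%, 95% interval 1.79 to 20.7%), against 14.8% of other marked genes. At Psmb1 the further peak (chr17:15499501-15500670, 48.5-fold) had its summit 319 bp upstream of an alternative TSS of the gene. The TSS of Tbp, the TATA-binding protein, lies at position 15499888 inside this peak, on the plus strand opposite to Psmb1. It is 137 bp from the most upstream 5′ end of Psmb1 but 1590 bp from the reference TSS, so Psmb1 was not counted among the divergent promoters. At Psmd14 the further peak was small, 5.60-fold over 192 bp, 231 bp upstream of a TSS.

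The place of the H3K4me3-ChIP summit within the gene differed between proteasome genes and other marked genes, with the share of the others outside the interval of the members. This measure was chosen after the peaks had been seen. In 26 of 31 members (83.9%, 95% interval 67.4 to 92.9%) the summit fell in intron 1 of the reference transcript, against 38.5% of all marked genes. Exon 1 held it in 4 members (12.9%, 95% interval 5.13 to 28.9%), Psmb2, Psmb4, Psmd3 and Psmd12, always in the coding part, against 37.9% of other marked genes. Only Psmc2 had its summit upstream, at −395 bp and thus on the side of its divergent neighbour Dnajc2, against 18.4% of other marked genes.

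Counted from the last base of exon 1, the summit lay 75 bp downstream in the median member (95% interval 52 to 131), and 25 of 31 (80.6%, 95% interval 63.7 to 90.8%) lay 1 to 200 bp downstream, against 31.2% of other marked genes with more than 1 exon. In these 13260 other genes the median was −21 bp, inside exon 1. The distance was 144 bp at Psma3, 115 bp at Psmb5, 75 bp at Psmb6, 72 bp at Psmb7, 84 bp at Psmd4 and 62 bp at Psmd14. Strong peaks were not all alike in this, since the summit of Psmd11 lay 131 bp and that of Psmd6 11 bp downstream, and that of Psmd3 lay at −114 bp, inside exon 1.

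Gene structure also differed between the groups. The first exon of the reference transcript had a median length of 186 bp in the members (95% interval 133 to 217, range 58 to 599), against 232 bp in the others, and it held the start codon in 28 of 31 members (90.3%) against 63.5%. Among other marked genes whose first exon was no longer than the longest of the members, 5161 of 11970 (43.1%) had the summit in intron 1. Among those with a first exon within the quartiles of the members, it was 2149 of 4250 (50.6%, 95% interval 49.1 to 52.1%), against 12 of 15 such members (80.0%, 95% interval 54.8 to 93.0%). At like exon length the share of the others was thus higher than their 38.4% over all lengths, while that of the members changed little from 83.9%. Whether exon length or the place of the start codon has a part in the difference was not tested.

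**Figure D5:**
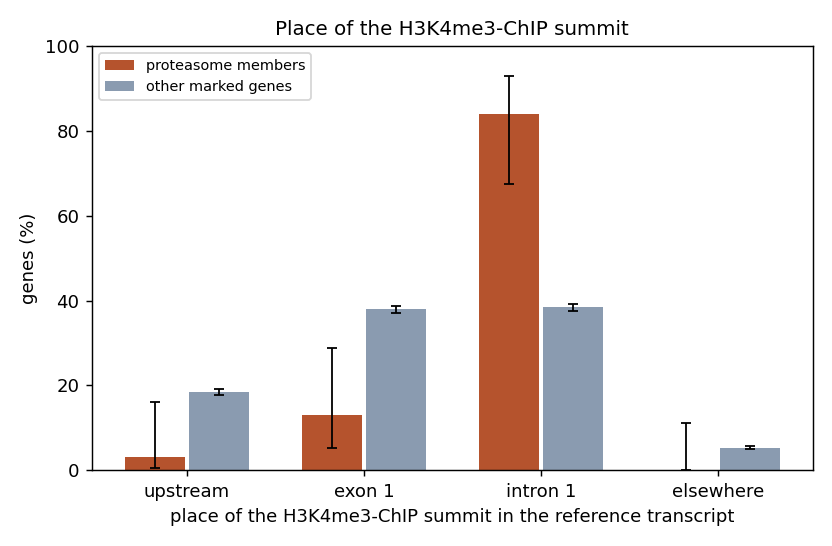
Bars give the share of genes (%, axis from 0) whose H3K4me3-ChIP summit lay upstream of the reference transcript, in exon 1, in intron 1 or elsewhere, for the 31 proteasome genes and 13736 other marked genes. Error bars are 95% Wilson intervals. Intron 1 holds 83.9% of the proteasome summits and 38.4% of the others.

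Measured from the nearest TSS of the gene, the summit lay downstream in 28 of 31 members (90.3%, 95% interval 75.1 to 96.7%) against 76.4% of other marked genes. The median position was +173 bp (95% interval 128 to 212) against +121 bp, and 23 members (74.2%, 95% interval 56.8 to 86.3%) lay 100 to 400 bp downstream, against 48.3% of other marked genes. The 3 with a summit upstream of the nearest TSS were Psmb4 (−24 bp), Psmd6 (−92 bp) and Psmc2 (−395 bp).

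The wider ubiquitin-proteasome pathway was taken from a list of 41 genes outside the members, of which 40 had a match in the annotation and Paaf1 had none. H3K4me3-ChIP peaks marked 38 of the 40 (95%, 95% interval 83.5 to 98.6%), against 62.7% of all protein-coding genes. The unmarked ones were Psmb11, the beta subunit of the thymoproteasome, and Psma8, the alpha subunit of spermatoproteasomes, both restricted to other tissues. Of the inducible subunits of the immunoproteasome, Psmb8 had 9.43-fold, Psmb9 18.7-fold and Psmb10 42.8-fold, so that Psmb8 and Psmb9 lay below every one of the 31 constitutive genes.

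The other groups varied. Adrm1 and Sem1, which encode further 26S subunits outside the 31, had 62.0-fold and 66.8-fold, the core assembly factors had a median of 34.1-fold (below the 39.9-fold of other marked genes) and a range from 27.4 to 63.7, and the activators and inhibitor had 52.5-fold from 19.2 to 56.8. Ubiquitin and E1 genes had a median of 50.9-fold, and the shuttle proteins had 50.5-fold. Base chaperones had a median of 46.7-fold and reached down to 13.98-fold in Psmd10. The transcription factors and their processing enzymes had a median of 42.2-fold, with 46.6-fold at Nfe2l1, 25.7-fold at Nfe2l2 and 24.2-fold at Nfe2l3.

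Of the 40 pathway genes, 2 were NF-Y-positive, Vcp and Rad23b (5%, 95% interval 1.38 to 16.5%), near the 3.17% of all protein-coding genes and 5.03% of all marked genes. Vcp, the ATPase that extracts ubiquitinated proteins from membranes and complexes, had a peak at chr4:43000428-43000635 with 7.65-fold (rank 278 of 733), 66 bp upstream of the TSS and with a CCAAT box within 50 bp of the summit. Its promoter window held 5 boxes, the best with a flank score of 3.94. Rad23b, a shuttle that carries ubiquitinated proteins to the proteasome, had a peak at chr4:55349686-55349882 with 7.71-fold (rank 272), 246 bp upstream of the TSS, and no CCAAT box lay within 50 bp of that summit. Both were weaker than the 9.87-fold peak of Psma3. Counting peaks inside the gene or within 5 kb upstream gave 4 of 40 pathway genes (10.0%, 95% interval 3.96 to 23.1%), among them Nfe2l2 (5.12-fold, 1213 bp downstream of the TSS), against 3.69% of all protein-coding genes and 5.69% of all marked genes, of which the interval covers the latter.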

How the data were processed

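Reads were trimmed by the authors (Trimmomatic), mapped to the mm10 genome by Bowtie 2 (2.2.8) and passed to MACS2 (2.1.2), which called NF-Y-ChIP peaks at p < 0.001 and H3K4me3-ChIP peaks at q < 0.05. Versions are from the submitters' processing notes. Input was the study's negative control for ChIP, the methods name no control for the MACS2 calls, and input was not analysed here. The deposited fold enrichment is a ratio of summit signal to the background MACS2 estimated, which is input or the ChIP library's own surroundings depending on that control, and what every printed fold is relative to depends on this. The deposited −log10 values are of the p-value and q-value. The deposited display score follows the −log10 p-value for NF-Y-ChIP and the −log10 q-value for H3K4me3-ChIP, and the score, the thresholds and the given definition of the gene list tied each list to its antibody. The lists hold no read counts, so depth is unknown.

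Values were used as deposited. TSSs were the 5′ ends of all GENCODE M21 transcripts. The reference transcript was the protein-coding one with the best APPRIS tag, then CCDS tag, support level and most upstream end. Sequences were read from RefSeq's GRCm38 genome, and coordinates are 1-based. Named genes were those with an NF-Y-ChIP summit, the 3 highest and lowest members by fold enrichment and width, Psmb5, Psmb6, Psmb7, Psmd4 and Psmd14, members with CCAAT or a divergent gene, and pathway genes with NF-Y-ChIP or without H3K4me3-ChIP. Members named outside this rule, such as Psma6, Psmb4, Psmd3, Psmd7 and Psmd12, and the values of other pathway genes were chosen after they were seen. The members and lists were chosen with earlier results of these data known. Flank score frequencies had a pseudocount of 1. The functions were tested on simulated data, where 1000 of 1000 calls were right in each of 4 checks. Scripts ran under Python 3.11.15 with pandas 2.3.3, NumPy 2.4.6, pysam 0.24.0, matplotlib 3.10.9 and SciPy 1.17.1, after indexing with samtools 1.23.1. Some genes and sequences are not reported here.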

Additional observations from a re-analysis of the deposited data

How the results depend on the processing

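Of 30 alternatives to the thresholds, distances, TSS sets, windows and target rules, 27 left the value within 1.5 times the reported count or within the interval of the median. Some of these could hardly move. Those on NF-Y-ChIP fold enrichment, on boxes near the summit and on overlap with H3K4me3-ChIP concern the Psma3 peak alone. The stricter NF-Y-ChIP thresholds also keep that strong peak, so the count of 27 is not a measure of robustness. The NF-Y-positive member was Psma3 alone under all 9 alternatives for that count, while the share of marked genes ran from 2.65 to 5.69%. H3K4me3-ChIP peaks marked 31 members, or 30 when only the stronger 50% of peaks was used. Values moved under 3 alternatives. With a window from 100 bp upstream to the TSS, 8 members held CCAAT in place of 14, against 21.4% of marked genes. Counting peaks inside the gene or within 5 kb upstream gave 4 pathway genes with NF-Y-ChIP in place of 2. From the reference transcript the median H3K4me3-ChIP summit position was 247 bp in place of 173. The count of summits in intron 1 was 25 with the peak nearest to the reference TSS and 22 with summits shifted 50 bp upstream, where it was 29.2% of all marked genes, both chosen after seeing the data in place of 26. No paired analysis was possible because each antibody has 1 library, and for the same reason no replicate could be left out. Peaks under the calling threshold at the depth of these libraries are not listed, so a member without a peak is not shown to lack binding.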
